A study of Rattus norvegicus with 6 samples.

Results

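Heme oxygenase 1, encoded by Hmox1, opens the heme ring and releases iron, and the genes described here handle what comes before and after that step. They are 10 rat genes: Hmox1, Alas1, Blvra, Blvrb, Fth1, Ftl1, Slc40a1, Tfrc, Hp and Cp. They were taken by name, as the non-control array probes whose accession belongs to 1 of these genes. The genes were chosen by their role and with the measured fold changes of monuron over corn oil in view, and Hmox1 was selected on its very high value on 1 monuron array, so the values of the 10 genes in that comparison are given as a description with no test. All 10 genes had a probe, 26 of the 61537 non-control probes in all, and all 10 passed the detection filter among the 30229 genes tested.

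The RNA came from the renal cortex of Sprague-Dawley (Crl:CD(SD)) rats, all male and bought at 5 weeks of age, and was read with 1-colour Agilent arrays. In 1 group 3 rats were given corn oil, the vehicle, for 4 weeks, and in the other 3 rats were given monuron, a phenylurea herbicide, at 200 mg/kg/day for the same time, with 1 array per rat and the design text calling the rats biological replicates. The route of dosing, and whether the monuron rats also had corn oil, is not given in the sources used here. All corn oil arrays lay on 1 slide and all monuron arrays on another, so an effect of the slide or its scan and an effect of monuron cannot be told apart in any value below.

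Iron moves through a cell along a short route. Transferrin-bound iron enters through the transferrin receptor, part of it is built into heme by a pathway that 5-aminolevulinate synthase starts, spare iron is stored inside the ferritin shell of heavy and light chains, and ferroportin lets it out. When heme is broken down, heme oxygenase yields biliverdin, carbon monoxide and iron, and biliverdin reductase turns biliverdin into bilirubin. The kidney cortex meets heme and iron from the filtrate, from which the proximal tubule takes up proteins, and heme oxygenase 1 is a well-known stress-induced enzyme of injured tubules.

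A level here is log2 of the processed spot signal minus log2 of the 75th percentile of all non-control probes on the same array, so 0 is a signal at that percentile. Levels of different probes are not comparable, and every change is relative to the percentile. The 75th percentile lay between 825 and 922 signal units, and 60.9% to 70.4% of probes were well above background. All 10 proximal tubule markers and all 8 markers of other nephron segments passed the detection filter, as the label renal cortex calls for. Over all genes limma called 287 higher (0.949%) and 125 lower (0.414%) with monuron, together 1.36% of the genes tested, at a Benjamini-Hochberg adjusted p under 0.05. The split was 366 and 61 without scaling and 449 and 320 after normexp background correction with quantile normalization. Scaling on the spike-in controls instead moved the median over all genes from 0.02 to -0.48 on the log2 scale, with 308 genes then called higher and 20498 lower. Of the 10 genes 0 were called and 1 had an unadjusted p under 0.05 in limma, and nothing is read from this since the contrast was known when they were chosen. The groups did not overlap for 3 of the 10, all higher with monuron, as for 15.5% of all genes in that direction and 25.7% in either. The median log2 fold change was 0.13 over the 10 genes and 0.02 over all genes.

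**Figure D1:**
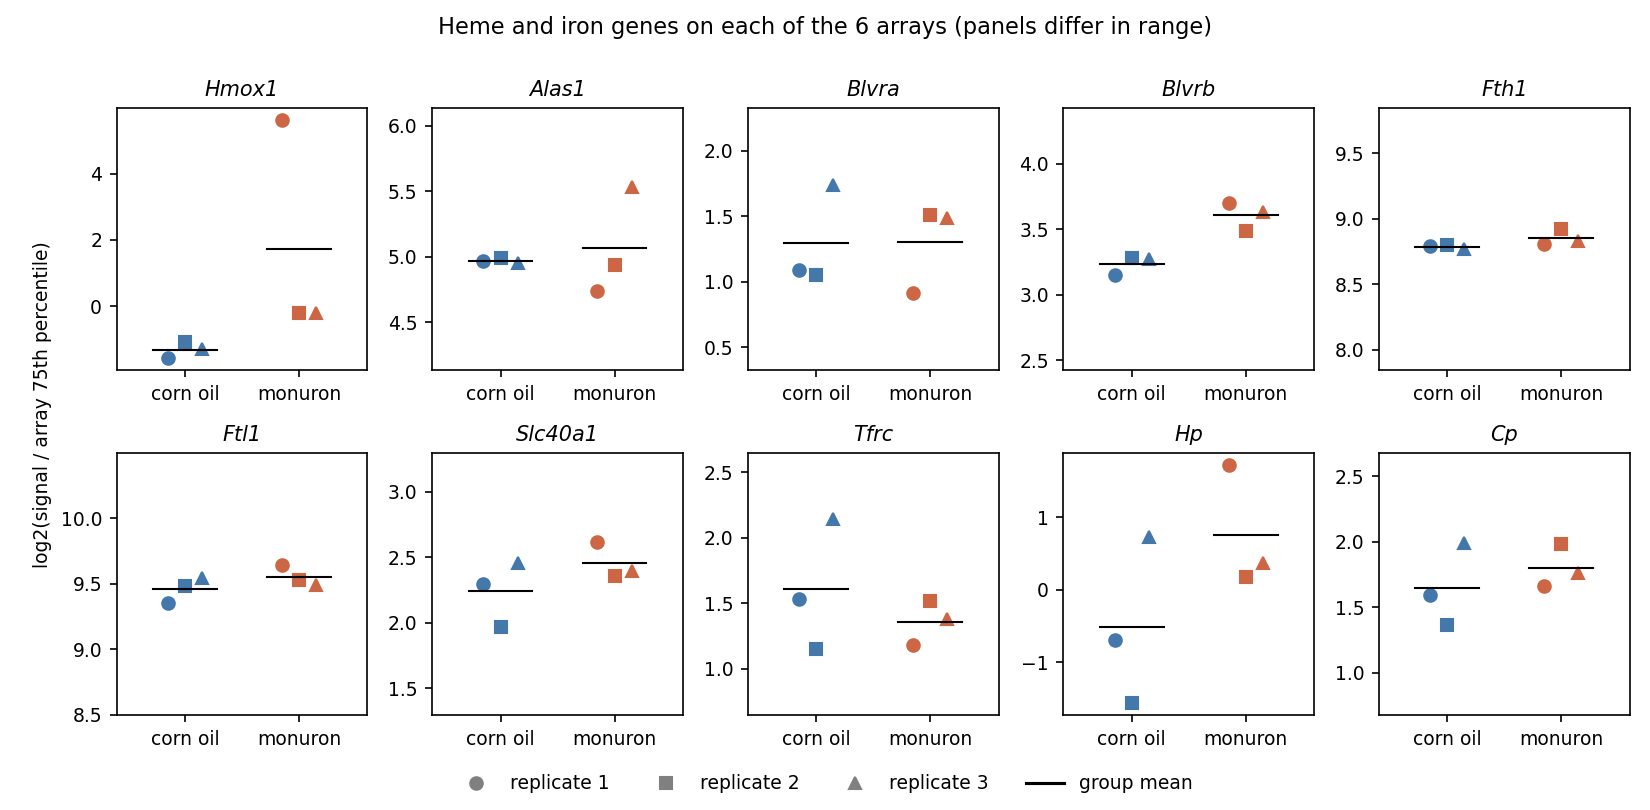
Level of each gene's brightest probe on the 3 corn oil arrays (blue) and the 3 monuron arrays (orange), as log2 of the signal over the array's 75th percentile. Symbols mark the replicate, black lines the group mean of n = 3, and the axis range differs between panels. Hmox1 stands at 5.62 on monuron replicate 1 and at -0.22 on the other monuron arrays.

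Hmox1 was read by a single probe. Its level was -1.57, -1.09 and -1.30 on corn oil replicates 1 to 3, and 5.62, -0.22 and -0.22 on monuron replicates 1 to 3. Every monuron array lay above every corn oil array, and 1 of them lay far above the other two. In linear terms the signal was 0.338, 0.469 and 0.405 times the 75th percentile with corn oil, and 49.1, 0.857 and 0.859 times with monuron. Monuron replicate 1 was thus 57.2-fold above the mean of its group's other arrays and 123-fold above the corn oil mean. The log2 fold change was 3.05 ± 1.61 (SE, 95% interval -0.93 to 7.02), with an SD of 3.37 over the monuron arrays and 0.24 over the corn oil arrays. Without monuron replicate 1 it was 1.1 ± 0.16, which is 2.14-fold, and the lower of the remaining monuron arrays still lay 0.87 above the highest corn oil array. Fewer cells of a type and less RNA per cell cannot be told apart in bulk tissue, here or in any value that follows.

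The scanner flagged no fault on the Hmox1 spot. The processed signal was 45261 units on monuron replicate 1 with a scanner error of 4526, against 784 and 746 on the other monuron arrays and 299, 392 and 334 with corn oil. All 6 spots were well above background, carried 0 outlier marks and were not saturated. The local background was 34.0 units on monuron replicate 1 and 26.5 to 32.0 on the others. The 49 passing spots within 4 rows and columns of it differed between monuron replicate 1 and the mean of the other monuron arrays by a median of -0.06, from -1.06 to 0.25. With no further probe for Hmox1 there is no measurement of the same transcript to set beside it. Whether the high value stems from the transcript was not tested.

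Across all genes the difference of 5.84 between monuron replicate 1 and the mean of its group's other arrays ranked first of 30226 genes with a value. Next came Fam111a at 3.98, named after its value was seen. Monuron replicate 1 was not otherwise rich in such genes. On that array 6 genes, Hmox1 among them, were at least 4-fold above all 5 other arrays, compared with 50 genes on corn oil replicate 2, 34 on corn oil replicate 3, 9 on monuron replicate 2, 1 on monuron replicate 3 and 0 on corn oil replicate 1.

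Among the 375 other genes with a symbol that spanned at least 2 on the log2 scale over the 6 arrays, the 8 with the highest Pearson r with Hmox1 were Atp7a, Akr1c12, Slc25a47, Ugt2b1, Asb11, Svop, Rdh7 and Cyp1a2. The coefficient ran from 0.969 for Atp7a to 0.823 for Cyp1a2 over these 6 arrays, which share their slides by group. Monuron replicate 1, where Hmox1 peaks, weighs most in it. Without that array it ran from 0.64 for Asb11 to 0.99 for Ugt2b1, apart from Atp7a. Over the 5 other arrays 1 of the 8 was still among the 8 highest. Atp7a, which encodes a copper-transporting ATPase, stood at 0.81 on monuron replicate 1 and between -1.54 and -1.27 on the other 5 arrays. It shared the single high array with Hmox1 but not the smaller difference on the other monuron arrays, and without monuron replicate 1 its r was -0.20. Akr1c12, an aldo-keto reductase gene, stood at -1.30 on that array, at -2.76 and -2.54 on the other monuron arrays and between -3.5 and -3.06 with corn oil, and kept an r of 0.91 without it. The glucuronosyltransferase gene Ugt2b1 and the cytochrome P450 gene Cyp1a2 were highest on monuron replicate 1 too, at -2.97 and -1.92. Neither cleared the background on a corn oil array, nor did Svop. Rdh7 cleared it on 1 and Slc25a47 on 2 of the 3 corn oil arrays. These genes passed the filter only through the monuron arrays, so their r rests partly on values in the background. None of the 8 was called (limma adjusted p from 0.0763 to 0.592).

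**Figure D2:**
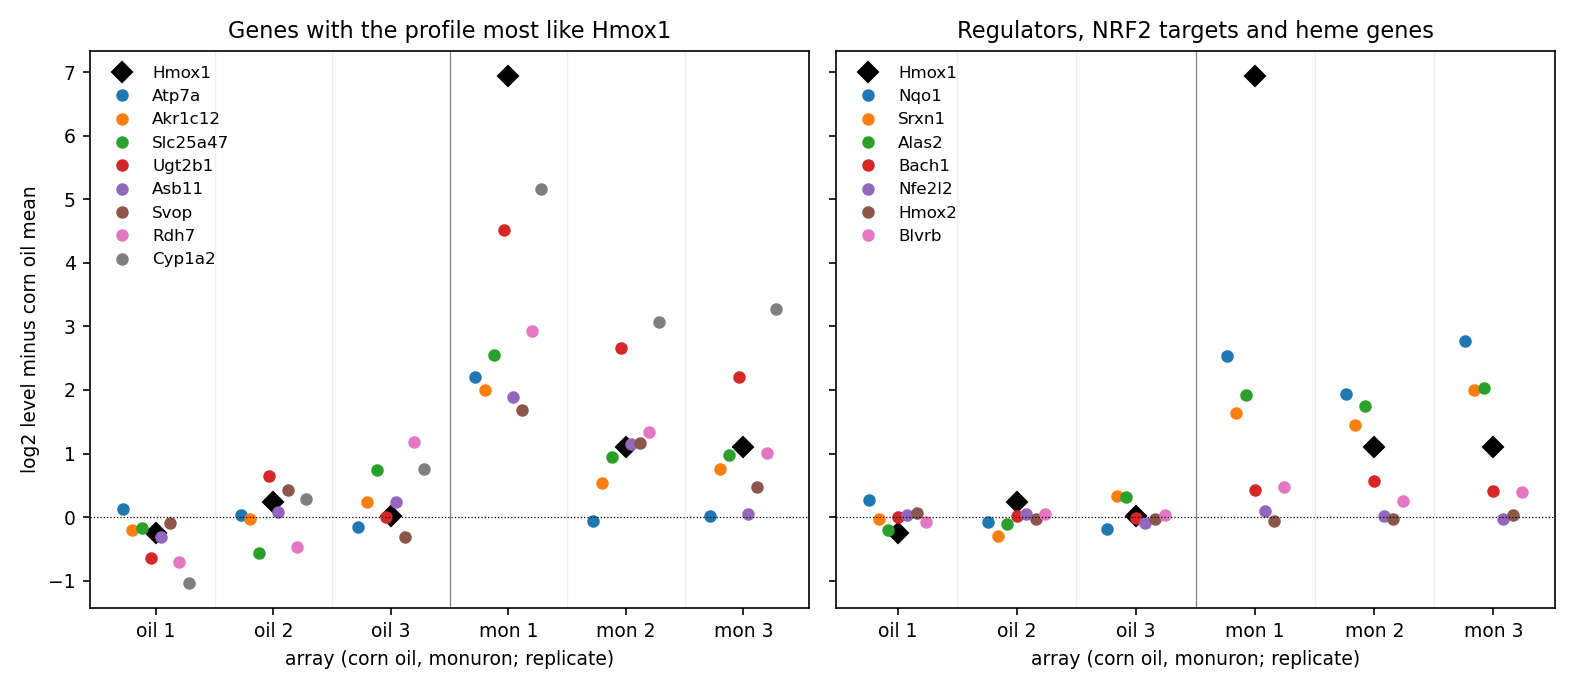
Level on each array minus the corn oil mean, on the log2 scale, for Hmox1 (diamonds) with the 8 genes of most similar profile on the left and with regulators, NRF2 targets and heme genes on the right. Corn oil arrays are named oil and monuron arrays mon, with the replicate number, and sideways offsets only separate the points. Nqo1, Srxn1 and Alas2 are high on all 3 monuron arrays, Hmox1 most of all on the first, and Bach1 and Blvrb lie slightly above the corn oil arrays, a difference that scaling on spike-in controls takes below 0.

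Hmox2 encodes the constitutive heme oxygenase. Its level was 4.18, 4.09 and 4.08 with corn oil and 4.06, 4.08 and 4.15 with monuron. The groups overlapped within a narrow band, and Hmox2 was not called (log2 fold change -0.02 ± 0.07, 95% interval starting at -0.18, limma adjusted p = 0.914).

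Biliverdin is reduced by 2 enzymes, biliverdin reductase A and biliverdin reductase B, the latter also a flavin reductase. Their promoters are shown because both enzymes reduce biliverdin. Each is the 250 bases before the transcript start used in the RefSeq table (GRCr8), 5′ to 3′ along the gene's strand, with capitals marking matches to TGACNNNGC, the core of the antioxidant response element that NRF2 and BACH1 bind, searched on both strands.
Blvra, chr3:134802660-134802909, + strand: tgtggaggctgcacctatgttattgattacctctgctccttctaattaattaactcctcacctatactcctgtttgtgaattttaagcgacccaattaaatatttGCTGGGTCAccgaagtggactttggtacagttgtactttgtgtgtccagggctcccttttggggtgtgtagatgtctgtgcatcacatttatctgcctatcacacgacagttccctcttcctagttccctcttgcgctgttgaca
Blvrb, chr1:91866008-91866257, + strand: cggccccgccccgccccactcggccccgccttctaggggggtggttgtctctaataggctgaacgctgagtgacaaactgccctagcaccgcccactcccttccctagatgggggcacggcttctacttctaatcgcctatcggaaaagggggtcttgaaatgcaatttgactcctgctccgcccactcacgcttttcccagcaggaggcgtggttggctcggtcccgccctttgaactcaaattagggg
The match in Blvra lies on the opposite strand, 145 to 137 bases before the start, and Blvrb has none in this window. Of the 10 genes 6 had a promoter in the table and 1 of these, Blvra, held a match, as did 10.1% of the 33469 promoters listed. Hmox1, Fth1, Ftl1 and Hp had no promoter there and were not searched. A match is a string of letters and no evidence of binding.

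Blvra had a level of 1.09, 1.05 and 1.74 on corn oil replicates 1 to 3 and of 0.91, 1.51 and 1.49 on monuron replicates 1 to 3. The groups overlapped, the lowest value was on the array where Hmox1 was highest, and the log2 fold change was 0.01 ± 0.25 (SE, 95% interval -0.62 to 0.63). Without that array and corn oil replicate 3 it was 0.43 ± 0.08. These arrays held its lowest monuron and its highest corn oil value, so leaving them out raises the difference by construction. The brightest probe of Blvrb stood at 3.15, 3.28 and 3.27 with corn oil and at 3.70, 3.49 and 3.63 with monuron. Each of its 3 probes was higher on every monuron array than on any corn oil array. The log2 fold change was 0.37 ± 0.08 for the brightest probe, a 1.30-fold difference, and 0.46 ± 0.08 and 0.55 ± 0.10 for the others, whereas scaling on spike-in controls put the brightest at -0.13. Without monuron replicate 1 it was 0.33 ± 0.09, and without corn oil replicate 3 as well 0.34 ± 0.11, a setting in which Blvra stood at a similar value. The difference between Blvra and Blvrb was not tested.

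**Figure D3:**
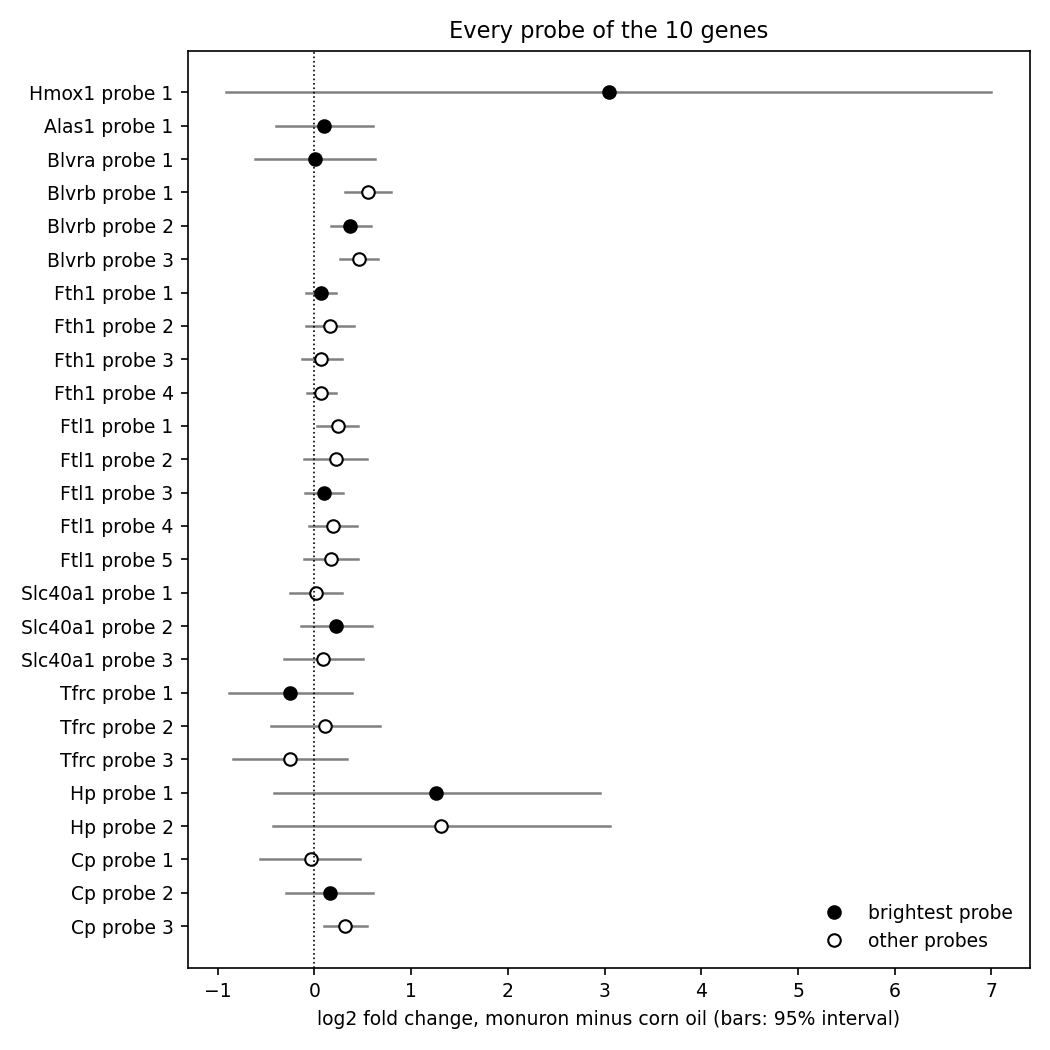
Log2 fold change of monuron over corn oil for each of the 26 probes of the 10 genes, with bars for the 95% interval of the limma fit over n = 3 arrays per group. Filled circles are the brightest probe of a gene, and probes are numbered in array order. The 3 Blvrb probes lie between 0.37 and 0.55 (the brightest at -0.13 when scaled on spike-in controls), and the interval of Hmox1 spans 0.

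Ferritin is built from heavy chains, which oxidise iron, and light chains, which help to lay it down as mineral. The brightest probe of Fth1, the heavy chain gene, read 8.79, 8.80 and 8.77 with corn oil and 8.81, 8.92 and 8.83 with monuron. The groups did not overlap but lay close together, and the 4 probes had log2 fold changes from 0.07 to 0.16. Ftl1, the light chain gene, read 9.35, 9.48 and 9.54 with corn oil and 9.64, 9.53 and 9.49 with monuron on its brightest probe. Those values overlapped, and the 5 probes gave log2 fold changes from 0.10 to 0.24, with 1 of the 5 showing no overlap. Both brightest probes turned to -0.43 and -0.40 with spike-in scaling, so the small differences of ferritin have no settled direction. Ferritin output is set largely by iron at the level of translation, which arrays do not read.

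Slc40a1 encodes ferroportin, the iron exporter. Its brightest probe read 2.30, 1.97 and 2.46 with corn oil and 2.62, 2.36 and 2.40 with monuron. The groups overlapped, and the 3 probes had log2 fold changes from 0.02 to 0.22, with 0.22 ± 0.15 (SE) for the brightest. Tfrc encodes the transferrin receptor, whose mRNA is stabilised when iron is short. It read 1.53, 1.15 and 2.14 with corn oil and 1.18, 1.52 and 1.38 with monuron. All monuron values fell inside the corn oil range, with a log2 fold change of -0.25 ± 0.26 (95% interval -0.88 to 0.39), and the 3 probes did not share a sign (-0.25 to 0.11). With corn oil replicate 3 and monuron replicate 1 both left out it was 0.11 ± 0.17. These arrays held the highest corn oil and the lowest monuron value of Tfrc, so leaving them out raises the difference by construction.

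Alas1 encodes the housekeeping 5-aminolevulinate synthase, the enzyme that starts heme synthesis and that heme represses. Its level was 4.97, 4.99 and 4.95 with corn oil and 4.74, 4.94 and 5.53 with monuron. The monuron arrays thus lay on both sides of the controls, lowest on the array with the highest Hmox1, and the log2 fold change was 0.10 ± 0.20 (95% interval -0.40 to 0.60). The SD was 0.02 over the corn oil arrays and 0.41 over the monuron arrays.

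Hp and Cp encode plasma proteins. Haptoglobin, from Hp, binds free hemoglobin, and ceruloplasmin, from Cp, oxidises iron as it leaves cells. Hp stood at -0.69, -1.57 and 0.73 on corn oil replicates 1 to 3 and at 1.72, 0.18 and 0.37 on monuron replicates 1 to 3. Corn oil replicate 3 lay above monuron replicates 2 and 3, so the groups overlapped. The log2 fold change was 1.26 ± 0.69 (SE, 95% interval -0.43 to 2.96), a 2.40-fold difference of the means, and the other probe gave 1.31 ± 0.71. Leaving out any single array gave 0.73 to 1.88, with 0.78 ± 0.69 without monuron replicate 1 and 1.4 ± 0.34 without corn oil replicate 3 as well.

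Transcripts of liver cells moved over the arrays beside Hp. Albumin, from Alb, stood at 0.41, 0.12 and 2.67 on corn oil replicates 1 to 3 and at 3.93, 2.12 and 2.04 on monuron replicates 1 to 3, with the same arrays highest. Of 15 hepatocyte markers 13 passed the detection filter. Monuron replicate 1 was the highest array for 10 of the 13, and corn oil replicate 3 and monuron replicate 1 were the highest pair for 7. The summed linear level of the list ran from 89.8 to 123 with corn oil and from 96.9 to 130 with monuron. Cyp2e1, also a kidney transcript, made up most of that sum at levels of 6.08 to 6.51, while Cps1 and Tat did not pass the filter. The part of such transcripts in the values of Hp was not tested.

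Hpx, which encodes the heme-binding plasma protein hemopexin, was highest on the same pair of arrays, with -0.60 on monuron replicate 1, -1.20 on corn oil replicate 3 and values between -3.72 and -2.01 elsewhere. It was not called (log2 fold change 0.97 ± 0.75, limma adjusted p = 0.551). Tf, the transferrin gene, read 2.62, 3.34 and 3.68 with corn oil and 4.26, 3.75 and 2.93 with monuron and was not called (0.43 ± 0.42, limma adjusted p = 0.632). Hamp, the gene of the iron hormone hepcidin, cleared the background on 2 of the 3 arrays with corn oil and had a log2 fold change of 1.03 ± 0.59 (limma adjusted p = 0.422). Cp differed from these in its profile. Its brightest probe read 1.59, 1.36 and 1.99 with corn oil and 1.66, 1.98 and 1.76 with monuron, with overlap and a log2 fold change of 0.16 ± 0.18. Its 3 probes were not alike: the log2 fold changes ran from -0.04 to 0.32, and the probe at 0.32 ± 0.09 was the 1 of the 3 whose groups did not overlap.

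**Figure D4:**
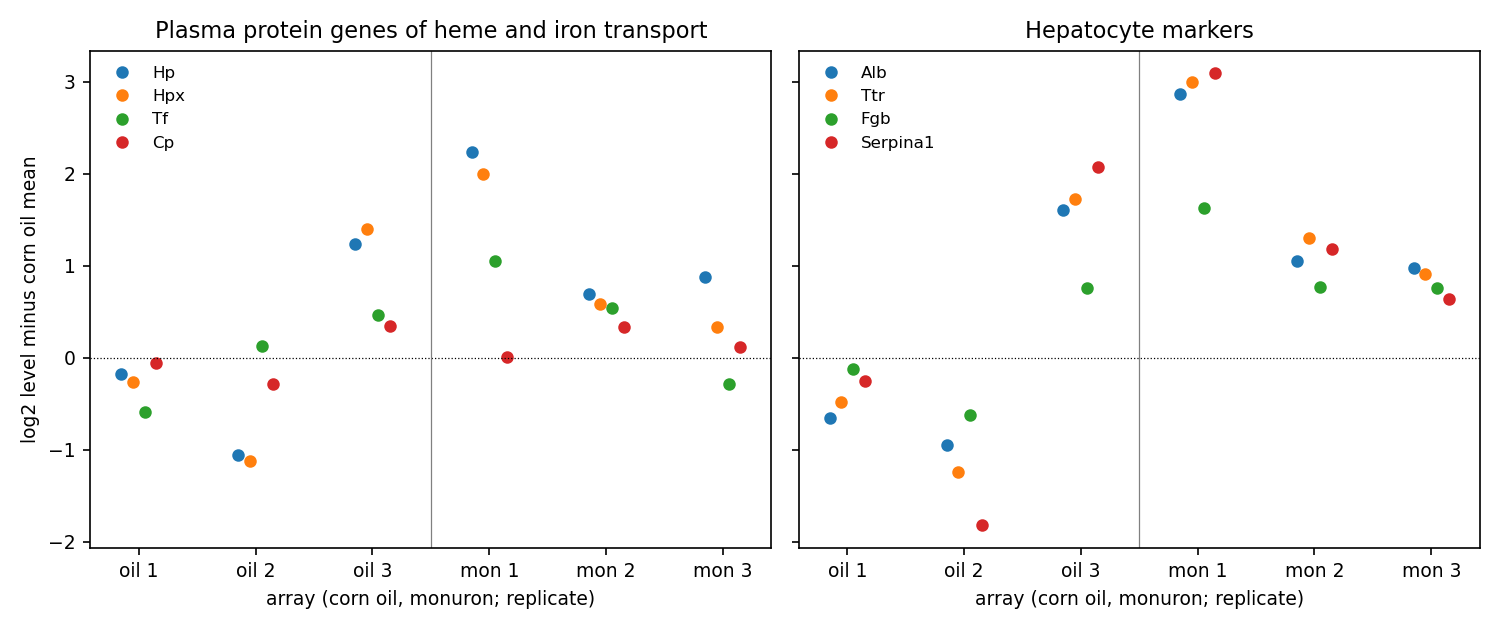
Level on each array minus the corn oil mean, on the log2 scale, for 4 plasma protein genes of heme and iron transport (left) and 4 hepatocyte markers (right). Sideways offsets only separate the points. Hp and Hpx are highest on monuron replicate 1 and corn oil replicate 3, as are Alb, Ttr and Serpina1, and Cp is not.

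The wider pathway was followed in 9 lists of heme and iron genes and 3 lists of regulators, NRF2 targets and heat shock genes, written from textbook knowledge with earlier results of these data known. Leaving out the 10 genes above, 64 of the 73 distinct heme and iron genes were measured. Of these 1 was called higher and 0 lower in limma, or 1.56% beside 1.36% of all genes. An unadjusted p under 0.05 was reached by 15 of the 64 (23.4%), beside 17.6% of all genes. The groups of 10 genes did not overlap with monuron higher, and those of 10 with monuron lower, beside 15.5% and 10.3% of all genes. The median log2 fold change was 0.04, against 0.02 over all genes tested.

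The heme gene that rose was Alas2, the 5-aminolevulinate synthase of red cell precursors. It read 0.51, 0.59 and 1.02 with corn oil and 2.62, 2.46 and 2.74 with monuron, so that the groups were far apart. The log2 fold change was 1.90 ± 0.16 (limma adjusted p = 0.0111). The call missed the threshold without corn oil replicate 2 (limma adjusted p = 0.0501) and without monuron replicates 1 to 3 in turn (0.0688, 0.0579 and 0.0653), while the log2 fold change stayed between 1.80 and 2.06. Alas2 is itself on the list of 13 erythroid markers, of which 7 passed the filter. The groups of the 6 others did not overlap, with monuron higher, beside 15.5% of all genes. Among them Epb42 cleared the background on 2 of the 3 corn oil arrays and passed the filter only through the monuron arrays. With Alas2 counted, 4 of the 7 were called higher in limma, beside 0.949% of all genes. The summed linear level of the 6 others ran from 323 to 433 with corn oil and from 781 to 865 with monuron. The beta globin genes Hbb and Hbb-b1, at levels of 7.26 to 8.93, made up most of that sum. Of the 13 markers 8 had a named probe, of which Rhag did not pass the filter. The part of red cells in the value of Alas2 was not tested. The other 7 measured heme synthesis genes were not called. Fech, which inserts iron into the ring, read 0.44, 0.40 and 0.46 with corn oil and 0.80, 0.68 and 0.84 with monuron, with no overlap and a log2 fold change of 0.34 ± 0.07 (limma adjusted p = 0.0952), or -0.16 with spike-in scaling. Alad stood at -0.04 ± 0.10 and Urod at 0.02 ± 0.07.

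Among genes that bind hemoglobin and heme in plasma or take up such complexes from filtrate or plasma, 6 were measured and 0 called in limma. An unadjusted p under 0.05 was reached by 3, beside 17.6% of all genes. The groups of 4 did not overlap with monuron lower, where 10.3% of all genes did so. The receptor gene Cubn read 6.09, 5.68 and 5.98 with corn oil and 5.22, 5.19 and 5.28 with monuron (log2 fold change -0.69 ± 0.12, limma adjusted p = 0.0669). Its partner Lrp2 stood at -0.52 ± 0.10 (limma adjusted p = 0.0760) and Amn, which anchors cubilin, at -0.28 ± 0.07 (0.126). Over 20 alternatives Cubn was called lower in 3 and Lrp2 in 2. Spike-in scaling was among these, at -1.18 for Cubn and -1.02 for Lrp2, a setting that called 67.8% of all genes lower. Cd163, the macrophage receptor for haptoglobin-bound hemoglobin, had 3 probes, of which 0 passed the filter.

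Of 13 measured genes of heme transport and binding 0 were called in limma (2 at an unadjusted p under 0.05). For this list and those that follow, 17.6% of all genes had such a p. The proton-coupled folate and heme carrier gene Slc46a1 had a log2 fold change of 0.28 ± 0.10 and Flvcr2 of -0.53 ± 0.20 (limma adjusted p = 0.224 and 0.263). Iron uptake genes gave 0 calls among 10 in limma (3 at an unadjusted p under 0.05), with Slc22a17, a lipocalin receptor gene, at -0.33 ± 0.08 and the metalloreductase gene Steap2 at -0.31 ± 0.08 (limma adjusted p = 0.119 and 0.131). The groups of both did not overlap, with monuron lower, beside 10.3% of all genes. Heph, the membrane relative of ceruloplasmin, read 0.43, 0.36 and 0.48 with corn oil and 0.08, 0.19 and 0.27 with monuron (-0.25 ± 0.08, limma adjusted p = 0.201). In the storage list Ncoa4, which carries ferritin to its breakdown, stood at 0.19 ± 0.09 (limma adjusted p = 0.350) and the iron chaperone gene Pcbp2 at -0.03 ± 0.06 (0.850). The iron sensing list gave 0 calls among 11 in limma (1 at an unadjusted p under 0.05), with Aco1, iron regulatory protein 1, at -0.31 ± 0.11 (0.240) and the hepcidin inhibitor gene Tmprss6 at 0.19 ± 0.09 (0.352). Of 12 mitochondrial iron and iron-sulfur genes 0 were called in limma (3 at an unadjusted p under 0.05). The cysteine desulfurase gene Nfs1 was at -0.27 ± 0.06 (limma adjusted p = 0.115) and the iron importer gene Slc25a37 at 0.27 ± 0.08 (0.177).

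Transcription of Hmox1 is held down by BACH1 and driven by NRF2. Bach1 passed the test. Its brightest probe read -2.21, -2.19 and -2.22 with corn oil and -1.78, -1.64 and -1.80 with monuron, a log2 fold change of 0.47 ± 0.07 (limma adjusted p = 0.0495), or -0.03 when scaled on spike-in controls. The other probes gave 0.20 and 0.06 with overlapping groups, and the mean of the 3 was not called (0.24, limma adjusted p = 0.191). The call was lost under 18 of 20 alternatives, among them leaving out any single array (limma adjusted p = 0.132, 0.141 and 0.138 without corn oil replicates 1 to 3, and 0.122, 0.146 and 0.137 without monuron replicates 1 to 3). Nfe2l2, which encodes NRF2, had a log2 fold change of 0.02 ± 0.07 (limma adjusted p = 0.906). Maff, a small MAF partner, cleared the background on 1 of the 3 arrays with corn oil and had 1.65 ± 0.50 (0.185).

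The next list holds NRF2 target genes and Por, the gene of the reductase that supplies heme oxygenase with electrons. Of its 9 measured genes 2 rose, where 0.949% of all genes did, and 0 fell. An unadjusted p under 0.05 in limma was reached by 6 of the 9, beside 17.6% of all genes, and the groups of 5 did not overlap with monuron higher, beside 15.5%. Both counts include Gclm, which passed the detection filter only through the monuron arrays. Por stood at -0.03 ± 0.08 (limma adjusted p = 0.894). Nqo1, a quinone reductase gene, stood at -0.12, -0.71 and 0.11 on monuron replicates 1 to 3 and between -2.84 and -2.39 with corn oil. Its highest array was therefore monuron replicate 3, and the log2 fold change was 2.41 ± 0.24 (limma adjusted p = 0.0176). Srxn1, the sulfiredoxin gene, read 1.11, 0.85 and 1.48 with corn oil and 2.79, 2.60 and 3.14 with monuron (1.70 ± 0.21, limma adjusted p = 0.0308), highest on the same array as Nqo1. The call of Nqo1 was lost without any single array but monuron replicate 2 (limma adjusted p = 0.0539, 0.0726 and 0.0665 without corn oil replicates 1 to 3, 0.0875 and 0.0679 without monuron replicates 1 and 3). That of Srxn1 was lost without any but corn oil replicate 3 (0.0978 and 0.0858 without corn oil replicates 1 and 2, 0.103, 0.0913 and 0.105 without monuron replicates 1 to 3). Gclm, a subunit of the enzyme that starts glutathione synthesis, cleared the background on none of the corn oil arrays, and with monuron it was at least 1.92-fold higher. That bound sets the mean of the monuron arrays against the lowest signal well above background on each corn oil array, and Gclm was not called (limma adjusted p = 0.109).

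**Figure D5:**
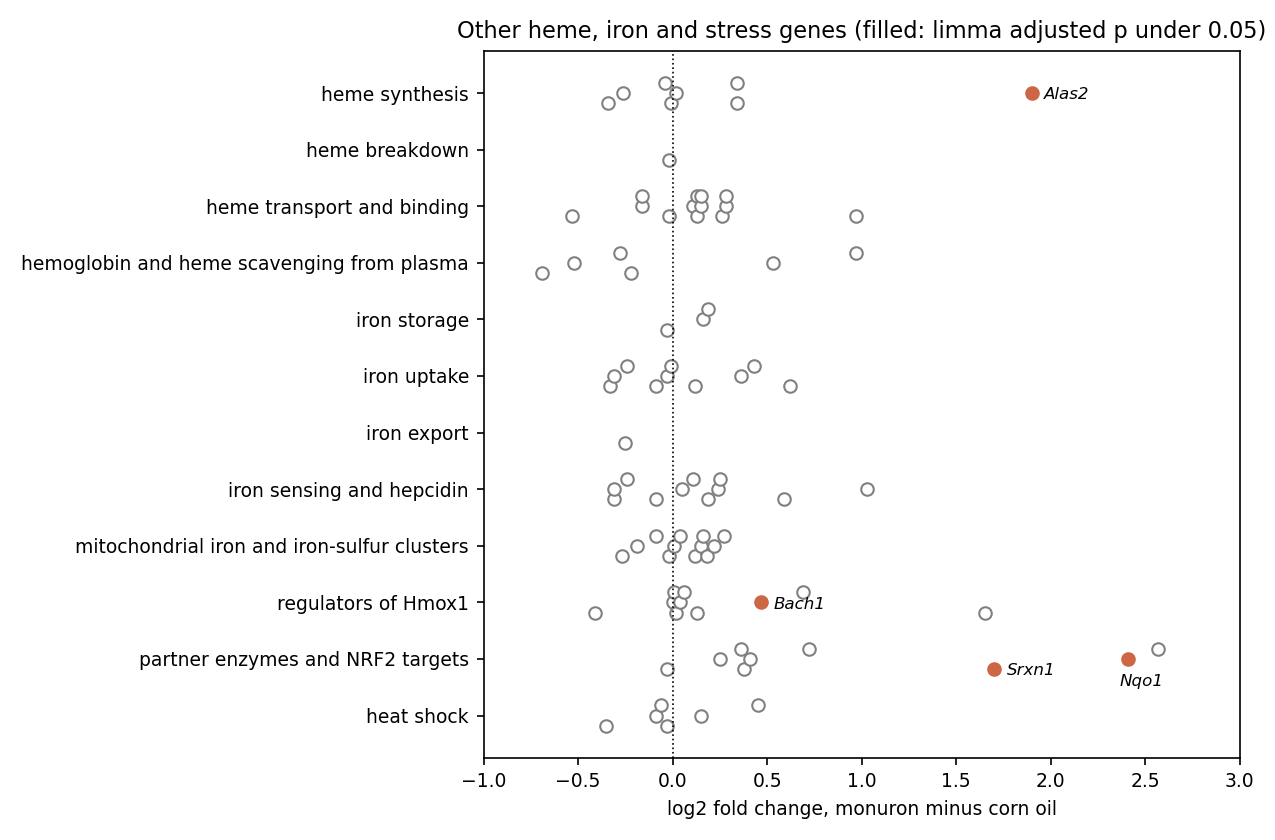
Log2 fold change of monuron over corn oil for the measured genes of each list other than the 10 described first, with 1 circle per gene and genes of more than 1 list drawn in each. Filled orange circles passed the limma test at an adjusted p under 0.05. Alas2, Nqo1, Srxn1 and Bach1 are filled, of which Bach1 stands at -0.03 with spike-in scaling, and the unfilled circle to the right of Nqo1 is Gclm, whose corn oil values lie in the background.

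The heat shock list was built from genes that the factor HSF1 drives. It gave 0 calls among 6 measured genes in limma, with 1 at an unadjusted p under 0.05, beside 17.6% of all genes. Hspa1a, the inducible HSP70 gene, read -1.74, -2.07 and -2.41 with corn oil and -2.44, -2.28 and -2.54 with monuron. Hsp90aa1 read 5.70, 5.81 and 5.76 with corn oil and 5.92, 6.22 and 6.48 with monuron. Its groups did not overlap, with monuron higher, beside 15.5% of all genes. The log2 fold change was 0.45 ± 0.15 (limma adjusted p = 0.211). The part of HSF1 in the values of Hmox1 was not tested. Macrophages, which recycle red cells, are a rich source of Hmox1 transcript. Of 14 macrophage markers 10 passed the filter, and their summed linear level was 68.3 on monuron replicate 1, the lowest of the 6 arrays, with a range of 74.5 to 124 with corn oil and 68.3 to 91.1 with monuron. Lyz2 alone made up 52.7 of the 68.3, and without it the sum was 15.6 on that array, with a range of 19.5 to 28.9 with corn oil and 15.6 to 24.1 with monuron. Of the 10 markers 7 were lowest on monuron replicate 1, and Cd68, Adgre1 and Msr1 were not. Marco, Vsig4 and Cd163 did not pass the filter, Spic had no named probe, and the part of macrophages in the values of Hmox1 was not tested.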

How the data were processed

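Total RNA of 6 renal cortex samples was labelled with Cy3 and hybridised to 1-colour Agilent arrays. The deposited scanner files hold spot intensity on a linear scale, which the authors extracted with Feature Extraction 10.7 (Agilent), as the submitters' processing notes state. The value table that the authors deposited is a ratio on a linear scale: entries of at least 0.1 equal the processed signal over 1 constant per array within 0.0497%, and its column medians are 0.108, 0.111 and 0.112 (corn oil) and 0.111, 0.111 and 0.110 (monuron).

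The values used here are log2 of the processed signal minus log2 of the array's 75th percentile over 61537 non-control probes. Control spots (1439) and spots marked as outliers were left out, and 0 spots were saturated. A probe passed if, in 1 group or both, all 3 arrays were well above background, which left 41125. Probe accessions, versions dropped, were looked up in a RefSeq table (GRCr8), which named 28206 probes (45.8%). The brightest passing probe stood for a gene. The fit was limma's lmFit with eBayes (version 3.58.1, R 4.3.3), with two-sided p-values adjusted by Benjamini-Hochberg over all genes, and it was tested on simulated data. Errors are SE unless given as SD. All adjusted p-values are from this fit, and 3 arrays per group limit the precision.

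The 10 genes, the lists and the motif were chosen with earlier results of these data known. Named besides the 10 were list genes that passed, the 2 of each list with the smallest p, Hmox2, Bach1, Nfe2l2, Alas2, Hpx, Tf, Cd163, Nqo1, Alb and Hamp in every case, and the 8 genes most like Hmox1. The plan counted on a mean spot signal for normexp, and the median spot signal was used. A few further genes are named as examples after their values were seen.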

Additional observations from a re-analysis of the deposited data

How the results depend on the processing

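The share of genes called was 0.949% higher and 0.414% lower, with 4 higher and 0 lower among the 89 measured list genes. No scaling gave 0.202% lower, spike-in scaling 67.8% lower (54 of the list genes), normexp with quantile normalization 1.49% higher and 1.06% lower (3 list genes lower), trend and robust 1.43% higher and 0.913% lower (4 list genes lower), and no detection filter 0.147% higher and 0.0418% lower (1 list gene higher). Leaving out 1 array gave 0.0821% to 0.366% higher, 0.0164% to 0.0891% lower and 0 to 2 list genes higher, with the smallest shares without monuron replicate 1. Without corn oil replicate 3 and monuron replicate 1 together, limma called 0 higher and 0 lower (4190 at an unadjusted p under 0.05), hence 0 in the lists. Bach1 turned to -0.03 with spike-in scaling. With the replicate number as a block limma called 0 higher and 0 lower (0 in the lists, 4557 at an unadjusted p under 0.05). The numbers do not pair the samples: deviations of same-numbered arrays correlated at -0.08, 0.11 and -0.17. Slide as a block could not be fitted. The log2 fold change of Hmox1 ranged from 1.1 to 4.02 over 20 alternatives, and 1 of its 8 most similar genes stayed among the first 8 when monuron replicate 1 was left out of the correlation. Designs without some arrays have fewer samples by construction, and for the other alternatives the cause was not tested.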

Other observations

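The second probe of Atp7a, looked at after the profile of the first was seen, read -1.93 on monuron replicate 1 and between -4.18 and -3.34 on the other 5 arrays. Both Atp7a probes were therefore highest on the array on which Hmox1 was highest. Of 7 neutrophil markers 4 passed the filter. S100a8 stood at -1.72, -0.30 and -0.76 on monuron replicates 1 to 3 and between -2.59 and -1.97 with corn oil, and S100a9 at -0.65, 0.70 and 0.41 against -1.31 to -0.70. The groups of both genes did not overlap, with monuron higher, beside 15.5% of all genes. Neither was called (limma adjusted p = 0.177 and 0.205). The groups of the other two overlapped: Camp stood at -3.05, -2.57 and -3.08 with monuron and between -3.29 and -3.08 with corn oil, and Csf3r at -4.56, -4.04 and -4.12 against -4.62 to -4.08 (limma adjusted p = 0.408 and 0.858).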
